A study of Tupaia belangeri with 6 samples.

Results

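Genes of microglia and of complement C1q were followed through the RNA of the tree shrew prefrontal cortex (PFC). The genes were chosen by name, as rows that carry 1 of 10 symbols: C1QA, C1QB, C1QC, CSF1R, P2RY12, TMEM119, CX3CR1, AIF1, TREM2 and TYROBP. Of these 10 genes, 7 had a row in the abundance tables, among 95863 genes in all, of which 22608 carried a name. No row carried the name C1QC, TMEM119 or TREM2, so these 3 genes have no value here. All 10 symbols are in the RefSeq gene table of another tree shrew assembly, TupChi_1.0, where C1QC starts between C1QB and C1QA. In the tables used here, C1QB lies on chromosome 12 and C1QA on an unplaced contig. No copy of a member (a row marked "li" by the annotation) was named.

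RNA was sequenced from the PFC of 6 adult tree shrews (Tupaia belangeri), 3 females (numbered 1, 3 and 4) and 3 males (numbered 1, 4 and 5), with 1 library for each animal and no pooling. The labels name no treatment and no genotype. The study's sample table lists each male at a greater age than each female, so age and sex cannot be told apart. Levels are given in TPM, StringTie's measure of transcript abundance per length, scaled to the size of the library.

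Microglia are the resident macrophages of the brain. They survey the tissue with motile processes, engulf dying cells and synapses, and live on signalling through the CSF1 receptor. Complement C1q, assembled from the A, B and C chains, is the recognition molecule of the classical complement pathway, and in the brain it is made mainly by microglia. P2RY12 and CX3CR1 mark resting microglia and sense nucleotides and the neuronal chemokine CX3CL1, while TYROBP is the signalling adaptor of TREM2 and related receptors.

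The labelled tissue was checked first. The cortical genes TBR1 and NEUROD6, transcription factors of forebrain neurons, were at 183 to 343 TPM and 89.9 to 145 TPM. The neuronal genes SNAP25, CAMK2A and SLC17A7 had means of 4188, 1570 and 1165 TPM. Between 30342 and 33114 genes were listed above 0 in a library. StringTie gave no strand to 18623 loci, and these took 2.30% to 3.33% of the TPM in the females, 5.16% in male 1, 2.67% in male 4 and 7.88% in male 5. Males 1 and 5 therefore stand apart, and the main results of the members that rest on them are given with and without them. Results of the other gene lists are given with them only. Some genes that most cells express, such as FTH1, and the neuronal gene NEFL were listed at 0 in every library (both chosen after their values were seen), so a 0 in these tables is given only as a listed value.

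All 7 members found were listed above 0 in every library. Averaged over the 6 libraries, their levels ran in the order C1QB (91.7 TPM), CSF1R (51.0 TPM), C1QA (43.4 TPM), TYROBP (30.8 TPM), AIF1 (22.2 TPM), P2RY12 (11.4 TPM) and CX3CR1 (8.20 TPM). C1QB stood above 87.9% to 94.8% of the named genes of a library. Neighbours in this order had overlapping ranges. C1QB nevertheless exceeded CSF1R in 6 of 6 libraries, by 1.14 to 3.16 times, and AIF1 exceeded P2RY12 in 6 of 6, by 1.12 to 2.65 times. CSF1R exceeded C1QA in 4 of 6 libraries, and the other neighbouring pairs kept their order in 5 of 6. This order is that of TPM. By mean read depth over the locus, CSF1R (52.7 to 75.2) was above C1QB (19.2 to 49.2) in every library. AIF1 (17.6 to 57.0) was likewise above TYROBP (8.95 to 14.8) in every library by depth, and it stayed above P2RY12 in every library.

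**Figure D1:**
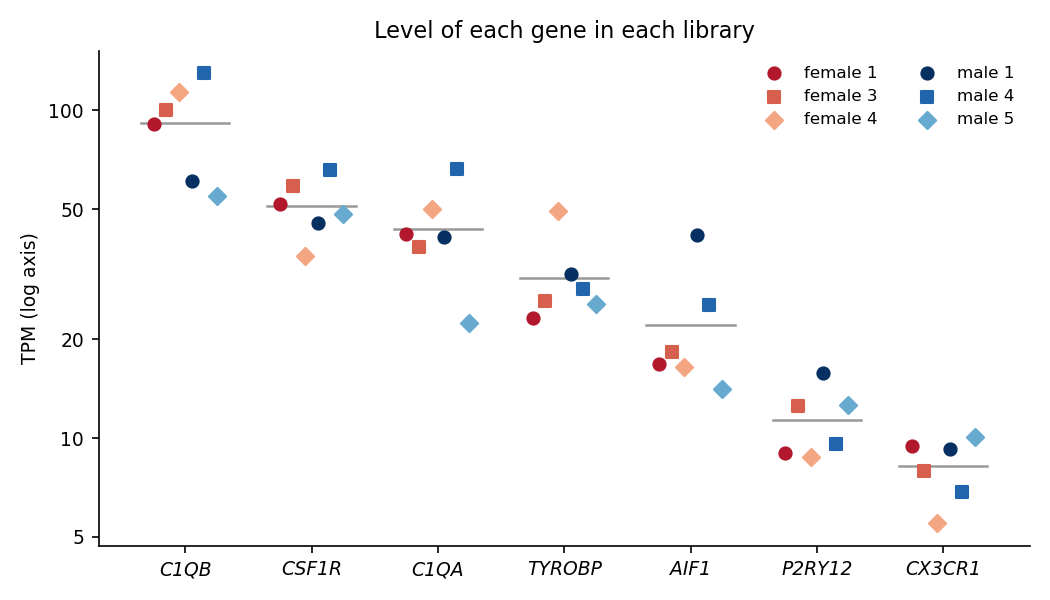
TPM (log axis) of the 7 genes in each of the 6 libraries, females in red shades and males in blue shades, with a grey line at the mean of the 6 libraries. C1QB is the highest gene on average (91.7 TPM) and CX3CR1 the lowest (8.20 TPM), and no gene separates females from males.

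C1QB encodes the B chain of C1q and spans chromosome 12, 89269445 to 89275285, on the plus strand of TS_3.0. It measured 91.0, 99.98 and 114 TPM in females 1, 3 and 4, and 60.9, 129.9 and 54.9 TPM in males 1, 4 and 5. Males 1 and 5 were below every female and male 4 was above every female, so the sexes overlapped. The female mean was 102 ± 11.4 TPM and the male mean 81.9 ± 41.7 TPM (SD, n = 3 each). The mean read depth over the locus, which is not scaled to the library, was 19.2 to 49.2.

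C1QA encodes the A chain and lies on contig13719, 5597 to 9270, on the minus strand. It measured 42.0, 38.2 and 49.95 TPM in females 1, 3 and 4, and 41.2, 66.2 and 22.5 TPM in males 1, 4 and 5. The highest and the lowest value were both in males, male 4 and male 5, with every female between them. The female mean was 43.4 ± 5.99 TPM, and the male mean, 43.3 ± 21.9 TPM, was almost equal to it (SD, n = 3 each).

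By TPM, the B chain was above the A chain in every library. By mean read depth over the locus, the A chain (22.3 to 63.3) was above the B chain (19.2 to 49.2) in every library. The order of the chains thus depends on the measure. Females 1, 3 and 4 had TPM ratios of C1QB to C1QA of 2.16, 2.62 and 2.28, and males 1, 4 and 5 had ratios of 1.48, 1.96 and 2.45. Added together, both chains reached 133, 138 and 164 TPM in the females and 102, 196 and 77.4 TPM in the males, a 2.53-fold range whose ends were both males. The sum of the other 5 members had a narrower range, 110.3 to 143.9 TPM (1.30-fold), although it adds genes that differ in opposite directions between libraries. Taken singly, these genes ranged 2.95-fold (AIF1), 2.12-fold (TYROBP), 1.83-fold (CSF1R and CX3CR1) and 1.80-fold (P2RY12), beside 2.95-fold for C1QA and 2.36-fold for C1QB. Without males 1 and 5, the ranges were closer, 1.47-fold for the C1q chains (133 to 196 TPM) and 1.24-fold for the other 5 members (110.3 to 136.3 TPM). These males hold the lowest sums of the C1q chains, and male 1 the highest sum of the other members. Leaving them out therefore narrows both ranges by itself.

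CSF1R, the receptor for CSF1 and IL34 on which microglia depend, spans chromosome 18, 36476613 to 36527111, on the minus strand. It measured 51.7, 58.7 and 35.9 TPM in females 1, 3 and 4, and 45.4, 65.9 and 48.2 TPM in males 1, 4 and 5. Female 4 was lowest and male 4 highest, and the sexes overlapped, with means of 48.8 ± 11.7 and 53.1 ± 11.1 TPM (SD, n = 3 each). The locus overlaps HMGXB3 on the opposite strand by 1943 bp, and that gene measured between 31.3 and 50.02 TPM. The sources do not state that strand was used in counting, so reads in such an overlap cannot be assigned with certainty.

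TYROBP, the adaptor that carries the activating motif for TREM2, lies on chromosome 21, 29348905 to 29410856, on the plus strand. It measured 23.3, 26.2 and 49.4 TPM in females 1, 3 and 4, and 31.7, 28.5 and 25.7 TPM in males 1, 4 and 5. Female 4 stood above the other 5 libraries, which lay within 23.3 to 31.7 TPM. The female mean was 33.0 ± 14.3 TPM and the male mean 28.6 ± 2.98 TPM (SD, n = 3 each). The locus is 61952 bp long and covers HCST on the opposite strand, which encodes the related adaptor DAP10 and was at 0 to 2.53 TPM. An unnamed locus of 354 bp on the opposite strand also lies inside it, listed at 1.60 TPM in male 4 and at 0 elsewhere. Whether StringTie merged reads of another gene into the long TYROBP locus was not tested.

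P2RY12, a purinergic receptor that steers microglial processes towards ATP and ADP, lies on chromosome 24, 22499619 to 22548839, on the plus strand. It measured 9.02, 12.6 and 8.77 TPM in females 1, 3 and 4, and 15.8, 9.60 and 12.6 TPM in males 1, 4 and 5. The female mean of 10.1 ± 2.12 TPM and the male mean of 12.7 ± 3.09 TPM (SD, n = 3 each) differed by less than the SD of the males. The whole locus, 49221 bp, lies inside MED12L on the opposite strand, which was itself at 4.94 to 10.7 TPM.

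CX3CR1, the fractalkine receptor, spans chromosome 28, 5820917 to 5843841, on the plus strand. It measured 9.48, 7.96 and 5.50 TPM in females 1, 3 and 4, and 9.29, 6.87 and 10.1 TPM in males 1, 4 and 5. Female 4 was lowest, as for CSF1R and P2RY12. The means were 7.65 ± 2.01 and 8.74 ± 1.67 TPM (SD, n = 3 each), and the read depth over the locus was the lowest of the 7 genes, 4.41 to 6.84. An unnamed locus of 324 bp without strand lies inside CX3CR1. It was listed at 4.71 TPM in male 1, at 0.281 TPM in male 4 and at 0 elsewhere. Whether its reads belong to CX3CR1 was not tested.

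AIF1 encodes IBA1, the calcium-binding protein used to stain microglia and other macrophages, and spans chromosome 3, 131598123 to 131600193, on the minus strand. It measured 16.8, 18.4 and 16.5 TPM in females 1, 3 and 4, and 41.8, 25.5 and 14.2 TPM in males 1, 4 and 5. Males 1 and 4 were above every female and male 5 below every female. The female mean of 17.2 ± 0.993 TPM had a far smaller SD than the male mean of 27.1 ± 13.9 TPM (SD, n = 3 each). All of the locus, 2071 bp, lies within NCR3 on the opposite strand, which measured 2.44 to 11.7 TPM.

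Females and males were then compared across the table. Values were taken as log2(TPM + 1), on which changes of low genes appear smaller than they are. The female minus male difference was tested with limma, a linear model with shared variance estimates, in 30239 genes, and all 7 members passed the filter on low values. By limma with Benjamini-Hochberg adjustment, 0 of 7 members had an adjusted p under 0.1, where 0.0165% of all genes tested did. At an unadjusted p under 0.05, the count was again 0 of 7, beside 5.03% of all genes. The sexes overlapped in all 7 members, whereas they did not overlap in 9.85% of all genes. The member with the smallest unadjusted p, AIF1, had rank 6101 among all genes tested.

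The C1q chains had positive differences, 0.41 (SE 0.31) for C1QB and 0.12 (SE 0.35) for C1QA. TYROBP also had a positive difference, of 0.12 (SE 0.29). The receptors had negative differences, −0.13 (SE 0.24) for CSF1R, −0.29 (SE 0.29) for P2RY12 and −0.18 (SE 0.33) for CX3CR1, and AIF1 had −0.50 (SE 0.35). Each 95% interval included 0, and together they reached from −1.31 for AIF1 to 1.12 for C1QB. The median difference of the members was −0.13, beside −0.029 over all genes tested. The adjusted p-values of the members by limma with Benjamini-Hochberg adjustment were 0.926 to 0.981.

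**Figure D2:**
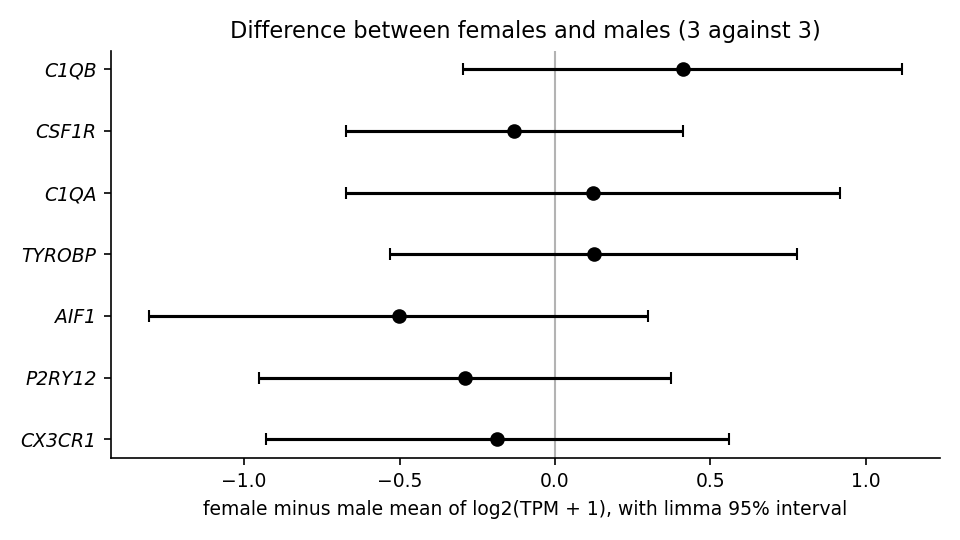
Female minus male mean of log2(TPM + 1) for each of the 7 genes, with the 95% interval from limma (3 females against 3 males). Points lie between −0.50 (AIF1) and 0.41 (C1QB), and every interval crosses 0.

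Leaving out male 1 or male 5 alone kept C1QB positive, at 0.26 and 0.18. Without male 4, C1QB was at 0.80 and C1QA at 0.49, again with no call. With both left out, the male arm is male 4 alone, which has the highest C1QB and C1QA of the 6 libraries, so the differences of −0.36 for C1QB and −0.61 for C1QA follow from that choice. AIF1 was lower in females in each of the 19 alternatives tried, with values from −0.93 to −0.14, and none of them gave a call. C1QA was also at −0.27 without male 5 alone and at −0.19 with the animal number as a block. Against male 4 alone, P2RY12 was at 0.051 and CX3CR1 at 0.11. Without female 4, TYROBP was at −0.20, CSF1R at 0.070 and CX3CR1 at 0.0072, and without male 4 CSF1R was at 0.031. In bulk tissue, fewer microglia and less RNA per microglial cell cannot be told apart.

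Each pair of members was then correlated over the 6 libraries on the log2(TPM + 1) scale. The 21 pairs had a median Pearson r of 0.077, with 13 above 0 and 8 below. Over all pairs of genes tested, the median r was 0.00985 and 50.7% were above 0. With 720 orderings of 6 libraries, the smallest p that the exact permutation test can give is 0.00139.

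Only the C1q chains, among the 21 pairs, reached an unadjusted p under 0.05 for r. The share of all pairs of genes that reach it was not counted, so 1 pair of 21 is not read as a result about the members. C1QA and C1QB had r = 0.83 (two-sided exact permutation p = 0.0222) and Spearman's rho = 0.83 (exact permutation p = 0.0583). Adjusted over all genes tested, the exact permutation p for r was 0.518. The r was 0.91 without males 1 and 5, and 0.88 after the mean of each sex was removed. Both chains were highest in male 4, next highest in female 4 and lowest in male 5.

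The 10 pairs of a C1q chain with another member had a median r of 0.044, 5 above 0 and 5 below, and 0 of them had an exact permutation p under 0.05 for r. The share over all pairs of genes was again not counted. CSF1R had r = 0.27 with C1QB (exact permutation p = 0.601) and r = 0.21 with C1QA (exact permutation p = 0.729), with rho = 0.37 (exact permutation p = 0.497) and rho = 0.14 (exact permutation p = 0.803). P2RY12 and CX3CR1 had negative r with both chains. C1QB and CX3CR1 had r = −0.79 (exact permutation p = 0.0694) and rho = −0.89 (exact permutation p = 0.0333), and r = −0.73 without males 1 and 5. The adjusted exact permutation p over all genes tested was 0.552 for r. C1QB and P2RY12 had r = −0.74 (exact permutation p = 0.122) and rho = −0.66 (exact permutation p = 0.175), but r = −0.19 without males 1 and 5. C1QA and CX3CR1 had r = −0.69 (exact permutation p = 0.140) and rho = −0.71 (exact permutation p = 0.136). Females 1, 3 and 4 had ratios of C1QB to CX3CR1 of 9.59, 12.6 and 20.7, against 6.56, 18.9 and 5.45 in males 1, 4 and 5.

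**Figure D3:**
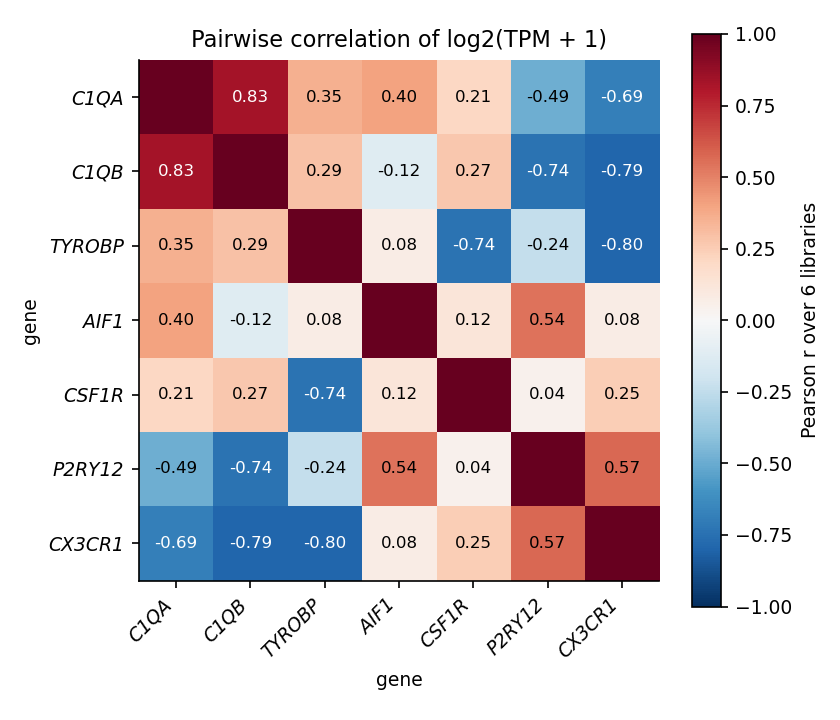
Pearson r over the 6 libraries for each pair of the 7 genes on the log2(TPM + 1) scale, red above 0 and blue below. C1QA and C1QB have r = 0.83, and both have negative r with P2RY12 and CX3CR1.

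TYROBP ran against CX3CR1 and CSF1R. With CX3CR1 it had r = −0.80 (exact permutation p = 0.0556) and rho = −0.77 (exact permutation p = 0.103), and with CSF1R r = −0.74 (exact permutation p = 0.103) and rho = −0.49 (exact permutation p = 0.356). Without females 1 and 4, the r with CX3CR1 was −0.06, so it rested on them. Without female 4 and male 4, the r with CSF1R was −0.53. The ratio of TYROBP to CX3CR1 was 8.98 in female 4 and 2.46 to 4.15 in the other 5 libraries.

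Among themselves, the receptors had r from 0.04 to 0.57. P2RY12 and CX3CR1 had r = 0.57 (exact permutation p = 0.232) and rho = 0.54 (exact permutation p = 0.297), and r was 0.24 without female 4 and male 1. CSF1R had r = 0.25 with CX3CR1 (exact permutation p = 0.622) and r = 0.04 with P2RY12 (exact permutation p = 0.946), with rho = 0.029 for both (exact permutation p = 1). Without female 4 and male 4, these became r = −0.79 with CX3CR1 and r = −0.42 with P2RY12. AIF1 and P2RY12 had r = 0.54 (exact permutation p = 0.296) and rho = 0.37 (exact permutation p = 0.497), a relation that turned to r = −0.18 without males 1 and 4.

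**Figure D4:**
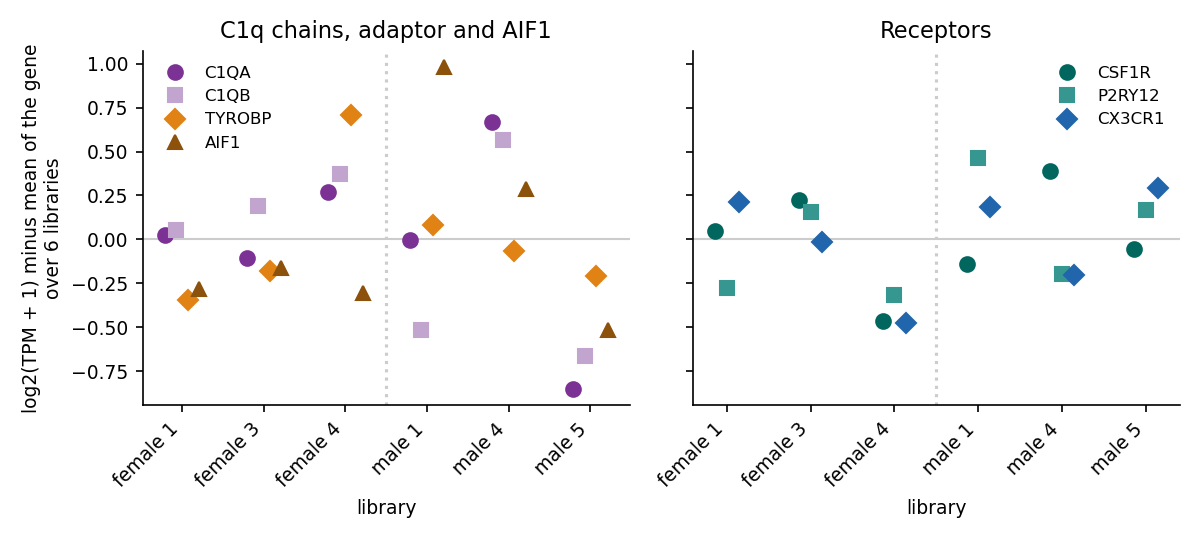
Deviation of log2(TPM + 1) from the mean of each gene over the 6 libraries, for the C1q chains, TYROBP and AIF1 (left) and the receptors (right); the dotted line separates females from males. In female 4 the 3 receptors are at their lowest while TYROBP is at its highest, and in male 5 C1QA, C1QB and AIF1 are at their lowest.

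The C1q chains were low in male 5, and C1QB in male 1, the libraries with the largest share of TPM at loci without strand. The r of this share was −0.85 with C1QB (exact permutation p = 0.0264) and −0.78 with C1QA (exact permutation p = 0.0903), while rho was −0.49 (exact permutation p = 0.356) and −0.37 (exact permutation p = 0.497). Without males 1 and 5, r was 0.52 for C1QB and 0.32 for C1QA, so both relations rested on these libraries. The part of this share in the levels of the C1q chains was not tested.

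A longer list of 51 further microglia genes was set beside the members, of which 40 had a row and all 40 were tested. By limma with Benjamini-Hochberg adjustment, 0 of the 40 were called, and 0 had an unadjusted p under 0.05. Of these genes, 22 had a positive and 18 a negative difference, with a median of 0.0077. The highest were CORO1A (mean 123 TPM), an actin regulator of leukocytes, SELPLG (65.2 TPM), the P-selectin ligand, and OLFML3 (49.0 TPM), a secreted protein of microglia. Summed over the list, females had 441 to 617 TPM, and males had 488 to 622 TPM.

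Relative to the summed TPM of these 40 genes, the C1q chains still differed between libraries. C1QB stood at 17.0%, 16.2% and 25.8% of that sum in females 1, 3 and 4, and at 12.5%, 20.9% and 10.8% in males 1, 4 and 5. CSF1R was the steadiest member on this scale, at 8.14% to 10.6%. TYROBP stood at 11.2% in female 4 and at 4.24% to 6.49% elsewhere, and AIF1 at 8.57% in male 1 and at 2.78% to 4.09% elsewhere.

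CSF1R was also the member most like the list over the libraries. Its r was above 0 with 37 of the 40 genes, with a median of 0.45, where its median with all genes tested was 0.080. The median r with the 40 genes was 0.23 for CX3CR1 (all genes 0.14), 0.20 for C1QB (all genes −0.085), 0.067 for P2RY12 (all genes 0.072), −0.013 for C1QA (all genes −0.066) and −0.035 for AIF1 (all genes −0.11). TYROBP had r above 0 with 7 of 40, with a median of −0.40 beside −0.15 for all genes. These values are descriptions, since genes of a library share its composition and are not independent.

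Female 4 was the library with the lowest level for CSF1R, P2RY12 and CX3CR1, and the same was so for 19 of the 40 further microglia genes (47.5%). Over all 13408 named genes tested, 28.4% were lowest in female 4. The sum of the neuronal genes was also lowest there, at 7732 TPM beside 8507 to 10133 TPM in the other libraries. So was the sum of the astrocyte genes, at 1424 TPM beside 1464 to 2220 TPM. The sums of the oligodendrocyte genes and of the endothelial and mural genes were not lowest there. Low levels in female 4 are thus not particular to microglia genes. No gene of the 40 was highest in female 4, beside 15.5% of all named genes, and 15 (37.5%) were highest in female 3, beside 24.2%. Examples in female 4 are SELPLG, at 28.7 TPM beside 60.1 to 82.0 TPM in the other 5 libraries, and ITGAM, at 10.7 TPM beside 15.2 to 27.8 TPM, which were chosen after their values were seen.

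**Figure D5:**
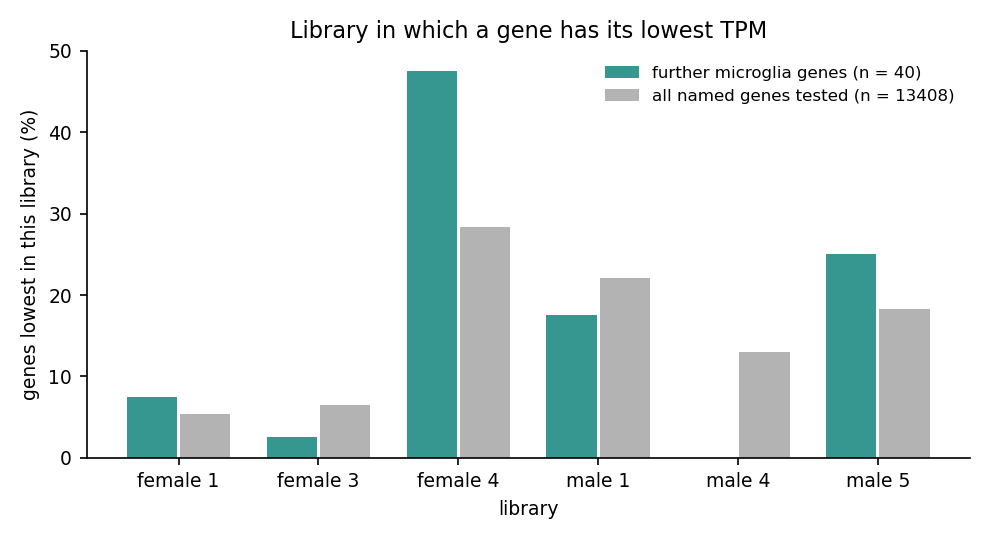
Percent of genes whose lowest TPM of the 6 libraries is in the library named on the x axis, for 40 further microglia genes (green) and all 13408 named genes tested (grey). Female 4 holds the lowest value of 47.5% of the microglia genes and 28.4% of all named genes.

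Of 20 other listed genes of the complement cascade, from all of its pathways, 14 had a row and 9 were tested, with 0 called by limma with Benjamini-Hochberg adjustment. The most abundant was C3, the central component, at 103, 113 and 57.1 TPM in females 1, 3 and 4, and at 93.9, 98.9 and 93.7 TPM in males 1, 4 and 5. MASP2, a protease of the lectin pathway, was higher in every female, at 92.2, 64.3 and 67.5 TPM, than in any male, at 33.0, 32.3 and 30.4 TPM. Its difference was 1.18 (SE 0.19), with an unadjusted limma p of 2.04e-04 and a Benjamini-Hochberg adjusted p of 0.562, so it was not called. MASP1, a related protease chosen after its values were seen, was lower in every female, at 11.97, 11.995 and 8.97 TPM, than in any male, at 14.9, 17.0 and 15.7 TPM (difference −0.50). These 2 of the 9 genes tested had sexes that did not overlap, beside 9.85% of all genes. CFP, or properdin, measured 31.5 to 57.4 TPM. C1S, a protease of the C1 complex, was at 1.96 to 6.10 TPM, C1R had no row, and C9 and MBL2 were listed at 0 in every library; C1S, C9 and MBL2 were chosen after their values were seen.

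Among 13 regulators of complement, 7 had a row and 6 were tested, with 0 called and 0 at an unadjusted p under 0.05. CLU, the chaperone clusterin, dominated at a mean of 3432 TPM, ahead of SERPING1, the C1 inhibitor, at 16.9 TPM, and the neural protein CSMD2 at 16.2 TPM. Of 13 receptors for complement and C1q, 9 had a row and 8 were tested, again with 0 called and 0 at an unadjusted p under 0.05. CALR had a mean of 641 TPM, LRP1 81.8 TPM and C1QBP 41.6 TPM. Many of these genes are expressed by neurons and astrocytes too.

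The proteins that share the C1q domain without being complement had 10 genes with a row, all tested, of 15 listed. The synaptic organizers C1QL3, C1QL2 and C1QL1 led with means of 118, 43.5 and 26.9 TPM. None of the 10 was called, while C1QTNF5 (difference 1.63) and C1QTNF3 (difference 1.17) had an unadjusted limma p of 0.00854 and 0.00907, with a Benjamini-Hochberg adjusted p of 0.926 for both, and were chosen after their values were seen. C1QTNF5 measured 19.2, 21.9 and 23.9 TPM in females 1, 3 and 4, and 5.74, 14.7 and 2.69 TPM in males 1, 4 and 5. Its difference thus leaned on males 1 and 5, and no value without them is given.

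Of 17 ligands and partners of the receptors, 12 had a row and were tested, with 0 called by limma and 0 at an unadjusted p under 0.05. CX3CL1, the neuronal ligand of CX3CR1, measured 489, 508 and 365 TPM in females 1, 3 and 4, and 382, 518 and 449 TPM in males 1, 4 and 5. IL34, the ligand of CSF1R made by neurons, measured 183, 174 and 151 TPM in the females and 106, 235 and 166 TPM in the males. Both ligands were thus more abundant than their receptors in every library. GAS6, a bridge to the receptors AXL and MERTK, had a mean of 125 TPM, and CSF1, APOE and GRN had no row.

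Genes raised in activated microglia had 17 of 24 with a row and 12 tested. None was called, and CD9 alone had an unadjusted limma p under 0.05 (0.0187, Benjamini-Hochberg adjusted p 0.926), with 154.7, 92.5 and 75.9 TPM in females 1, 3 and 4, and 77.8, 44.0 and 48.8 TPM in males 1, 4 and 5. The most abundant were CTSD, a lysosomal protease, at 402 to 655 TPM, B2M, the light chain of class I molecules, at 194 to 262 TPM, and CD74, the class II invariant chain, at 58.8 to 185 TPM. CTSD and CD9 are also expressed outside microglia. TNF and CCL3 were listed at 0 in every library, and these genes and CD9 were chosen after their values were seen.

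Markers of other cells were read in the same libraries. Of 24 genes of perivascular and blood leukocytes, 20 had a row and 16 were tested, with 0 called and 1 at an unadjusted p under 0.05. Females had a summed level of 88.7 to 119 TPM, and males of 90.4 to 104 TPM, led by PLAC8 at a mean of 41.6 TPM, CD79A at 20.3 TPM and S100A8 at 11.0 TPM, while CD163 and CD3E, chosen after their values were seen, were listed at 0. The hemoglobin genes HBQ1 and HBG were called by limma with Benjamini-Hochberg adjustment (both adjusted p 0.00708), and the hemoglobin sum reached 1272 to 2539 TPM in females but 62.7 to 100.4 TPM in males.

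Among glial and vascular lists, 0 of 5 oligodendrocyte genes tested were called, and 4 had an unadjusted limma p under 0.05, all higher in females, and their sum was 551 to 696 TPM in females, whereas males had 166 to 372 TPM. The 6 astrocyte genes, the 7 neuronal genes and the 7 genes of endothelium and mural cells tested had 0 calls, with 1, 0 and 1 at an unadjusted p under 0.05. The cortical gene NEUROD6 was not called and had an unadjusted limma p under 0.05, higher in males. The part of blood or myelin content in the levels of the microglial genes was not tested.

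The genes whose profile over the 6 libraries was most like that of the C1q chains were sought among 9569 named genes with a mean of at least 1 TPM. The highest r with the mean of C1QA and C1QB belonged to HPD (0.988), BAG1 (0.988), IGFALS (0.978), ADRA1B (0.972) and ARHGAP8 (0.969), and 127 genes had r of 0.9 or more. BAG1, for example, measured 66.3, 56.5 and 83.4 TPM in females 1, 3 and 4, and 48.8, 97.3 and 32.9 TPM in males 1, 4 and 5. For the mean of the other 5 members, the highest were ARMCX2 (0.991), ZNF829 (0.990), DHDDS (0.983), DTL (0.980) and ASB3 (0.975), with 35 genes at 0.9 or more. With 6 points and so many genes, such values are a description only.

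Genes beside the members were compared with them, 14 named neighbours within 50000 bp with a mean of at least 1 TPM, without the rows marked "li". Of these 14, only ZBTB40, a zinc finger gene that ends 3967 bp before C1QB on the same strand, had an unadjusted p under 0.05 for r. The share of all genes tested with such a p was not counted, so 1 of 14 is not read as a result about neighbours. ZBTB40, EPHB2 and P2RY13 were chosen after their values were seen. ZBTB40 measured 33.2, 39.4 and 49.5 TPM in females 1, 3 and 4, and 33.2, 59.6 and 28.4 TPM in males 1, 4 and 5, the same order of libraries as C1QB. It had r = 0.90 with C1QB (exact permutation p = 0.0236, adjusted over all genes tested 0.518), rho = 1 (exact permutation p = 0.00278) and r = 0.998 without males 1 and 5. EPHB2, on the other side of C1QB, had r = 0.49 (exact permutation p = 0.328) and rho = 0.37 (exact permutation p = 0.497). P2RY13, a related purinergic receptor 7492 bp from P2RY12, measured 0.461 to 4.66 TPM and had r = 0.46 with it (exact permutation p = 0.383) and rho = 0.54 (exact permutation p = 0.297). MED12L, which covers P2RY12 on the other strand, had r = 0.61 with it (exact permutation p = 0.186) and rho = 0.77 (exact permutation p = 0.103).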

How the data were processed

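Polyadenylated RNA was enriched from the PFC and sequenced in pairs. With HISAT2 2.2.1, the authors aligned reads to the assembly TS_3.0, then assembled and merged transcripts with StringTie 2.2.1, and measured the merged set in each animal. The deposited tables hold TPM, FPKM and coverage (mean depth per base) but no counts, so counting error has no interval here, and TPM keeps no depth. No column was left unmapped. Rows of 1 gene ID on 1 sequence were summed in pandas 2.3.3 (Python 3.11.15), exact permutations used numpy 2.4.6, adjustments scipy 1.17.1, and figures matplotlib 3.10.9. Genes that reached 0.1 TPM in at least 3 animals, outside the male-only segments of chromosomes X and 26, were tested as log2(TPM + 1) by limma 3.58.1 (R 4.3.3, mean-variance trend, no covariate). Benjamini-Hochberg adjustment ran over all genes tested, with a threshold of 0.1. The limma and correlation scripts were tested on simulated data. The limma p-values set a difference against the spread between animals of a sex, with variance estimates shared across genes. The permutation p-values set an r against all orderings of the 6 libraries. Both rest on these 6 animals alone.

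The members and all gene lists were chosen with earlier results of these data known. Named are the members, and the called and the 3 most abundant genes of a list. Also named are the 5 genes most like the C1q chains or the other members, and loci with a gene name that overlap a member. Others are said to be chosen later. A gene in several lists counts in each. Alternatives were other pseudocounts, filters and scalings, FPKM, loci with a strand, rows kept apart, no trend, adjustment within autosomes and X, the animal number as a block, Spearman's rho, sex means removed, and each animal left out. The list of cortical genes is not reported here as a whole.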

Additional observations from a re-analysis of the deposited data

How the results depend on the processing

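Under all 19 alternatives, 0 of 7 members were called, with limma and Benjamini-Hochberg adjusted p-values from 0.419 to 1. The median difference of the members, −0.13, lay between −0.22 and 0.031 when 1 animal was left out. Of all genes tested, 5 were called, 3 with FPKM, 8 with a filter of 1 TPM, 2 without the trend, 8 with males 1 and 5 left out and 2 to 8 with 1 animal left out. Leaving out males 1 and 5, chosen after seeing the data, sets 3 females against male 4 alone, which is assumed to vary like the females, and the median difference of the members was then −0.36. With the replicate block, the animal number, 3 genes and 0 members were called and the median difference of the members was −0.19. Deviations of same-numbered animals had r = −0.0048 and 0.038, and those of animals with unlike numbers had r from −0.062 to 0.061. No pairing by number was seen, but so few pairs cannot exclude it. Female 3 and male 5 share their number with no other animal. The differences with the block therefore rest on the animals numbered 1 and 4. The median r of the 21 pairs, 0.077, was −0.11 to 0.18 with 1 animal left out, and was −0.11 without female 4 and −0.061 without male 4. The cause of these changes was not tested. Copies of members could not be added, because the tables name none. TPM keeps no depth, the 3 animals of a sex limit precision, and overlapping genes on opposite strands are uncertain.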

Other observations

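Partners of the members and further myeloid genes had the following levels. ITGAM and ITGB2 encode the chains of complement receptor CR3, which binds fragments of C3. ITGAM measured 19.9, 26.1 and 10.7 TPM in females 1, 3 and 4, and 15.2, 27.8 and 19.0 TPM in males 1, 4 and 5. ITGB2 was listed at 0.111, 0 and 0.335 TPM in the females and at 0 in every male. SYK, a kinase that acts below TYROBP, was at 10.4 TPM in female 3 and at 2.22 to 4.09 TPM in the other 5 libraries. PTPRC, the pan-leukocyte phosphatase CD45, was at 0.697 to 1.77 TPM, and SPI1, the transcription factor PU.1 of myeloid cells, at 3.87 to 8.40 TPM. These genes were chosen after their values were seen.

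An unnamed locus of 603 bp lies 2965 bp from C1QA on the same contig and strand. It was listed at 0 in females 1 and 3 and in male 1, and at 17.9 TPM in female 4, 25.7 TPM in male 4 and 24.7 TPM in male 5. A locus named LINC-C1QA-1 on that contig was listed at 0 in every library.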
